A study of Bos taurus with 12 samples.

Results

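Cadherins are calcium-dependent adhesion proteins that join neighbouring cells of a kind. In the classical type I (CDH1, CDH2, CDH3) and type II (CDH5, CDH6, CDH11) members, the cytoplasmic tail is tied to the actin cytoskeleton through catenins. CDH13 (T-cadherin) is held by a lipid anchor and has no such tail, and CDH16 and CDH17 belong to the 7D group with a short tail, so that not every one of the genes described here is classical in the strict sense. In the uterus CDH1 (E-cadherin) holds luminal and glandular epithelium together, CDH11 is known from stromal cells and from their decidualization in other species, and CDH5 (VE-cadherin) marks the junctions of blood vessels.

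The endometrium of 12 cows was measured on Day 15 of the cycle, each on its own 1-colour custom bovine array. The old females (OF, n = 4) were nulliparous clones of 13 to 14 years and the young females (YF, n = 4) were primiparous clones of 4 to 5 years, all derived from somatic cells of a single Holstein donor cow, so that age and parity cannot be told apart. For the Contemporary cows (n = 4) the labels give neither an age nor a clone status, and Contemporary 1111, which the label sets aside for a divergent phenotype, was kept out of every group mean below unless it is named. The biopsies were intercaruncular tissue of the uterine horn on the side of the corpus luteum, a mixture of epithelium, stroma, vessels and glands, in which fewer cells of a type and less RNA per cell cannot be told apart.

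Members were the transcripts whose symbol on the array was CDH1, CDH2, CDH3, CDH5, CDH6, CDH11, CDH13, CDH16 or CDH17. All 9 genes were found, of 17790 named genes on the array, with 10 transcripts and 22 probes, none of which carried an outlier flag. A level is the log2 processed intensity minus the 75th percentile of the array, so that a level of 0 stands at that percentile, and probes of a transcript were averaged. Levels of different genes come from different probes and are not set against each other. Between 71.6% and 74.9% of spots stood well above background on an array, no spot was saturated, and all 12 epithelial and all 11 stromal fibroblast markers listed for the tissue check were above background on every array. The slides held 4 and 8 of the arrays, slide 1 being YF 1070, YF 1072, OF 0245 and Contemporary 1111. On 2 of the OF arrays smooth muscle markers stood far above the rest, with a mean log2 level of 4.06 in OF 2258 and 2.48 in OF 0234 against 0.16 or less in the other 10 cows. OF 2258 also had the lowest mean level of the epithelial markers, -0.20 against 0.60 to 2.63 elsewhere. The results of the members are given with and without these 2 arrays where they turn on them.

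The probes decide what can be read for each gene, and those that bear on the results are shown here 5′ to 3′ as 60-base oligos, with the location of the target transcript on build UMD 3.1 (bosTau6), whose strand the files do not give. CDH11 (chr18:32798826-32888927) was read by 2 oligos, each spotted 2 times per array, that overlap by 43 bases, shown in capitals, so that its 4 probes are readings of nearly 1 stretch of the transcript.
CDH11 probe 1: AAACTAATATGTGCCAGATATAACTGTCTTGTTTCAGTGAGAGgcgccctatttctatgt
CDH11 probe 2: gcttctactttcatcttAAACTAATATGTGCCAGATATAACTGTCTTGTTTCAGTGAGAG
The reverse primer that the study designed for RT-qPCR of CDH11 (aaatagggcgcctctcactg) matches probe 1 over its whole length of 20 bases, as the reverse complement at bases 35 to 54, in capitals below, and no other oligo on the array holds that site.
CDH11 probe 1 with the primer site: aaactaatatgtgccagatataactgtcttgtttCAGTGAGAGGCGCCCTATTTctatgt

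CDH5 (chr18:34260148-34274741), CDH3 (chr18:36095734-36140923) and CDH13 (chr18:9512739-10162782) were each read by 2 oligos with no more than 10 bases in common. They are shown because the pair of CDH5 and the pair of CDH3 behaved differently from animal to animal, while the pair of CDH13 moved together.
CDH5 probe 1: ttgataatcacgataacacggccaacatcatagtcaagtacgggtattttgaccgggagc
CDH5 probe 2: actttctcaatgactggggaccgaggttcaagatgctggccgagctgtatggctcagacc
CDH3 probe 1: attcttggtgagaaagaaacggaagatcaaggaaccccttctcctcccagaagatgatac
CDH3 probe 2: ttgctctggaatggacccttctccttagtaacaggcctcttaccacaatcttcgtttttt
CDH13 probe 1: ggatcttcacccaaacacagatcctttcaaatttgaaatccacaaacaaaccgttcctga
CDH13 probe 2: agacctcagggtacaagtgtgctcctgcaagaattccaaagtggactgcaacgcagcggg

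CDH16 was listed as 2 transcripts, at chr18:34733125-34743020 and chr18:34733118-34743031, but 3 of its 4 oligos lie over the same stretch. The 2 shown first share the 53 bases in capitals across the 2 transcripts, and only the last oligo lies elsewhere.
CDH16 first transcript, probe 2: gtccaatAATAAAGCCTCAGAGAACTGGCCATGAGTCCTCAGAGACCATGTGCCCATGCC
CDH16 second transcript, probe 1: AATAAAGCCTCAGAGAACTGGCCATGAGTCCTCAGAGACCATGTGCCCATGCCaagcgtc
CDH16 first transcript, probe 1: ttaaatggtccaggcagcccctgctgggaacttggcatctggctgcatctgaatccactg

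CDH1 (chr18:36221702-36243479), CDH11, CDH3, CDH5, CDH13 and CDH16, 6 of the 9 genes, lie on bovine chromosome 18. CDH2 (chr24:28992666-29241119), CDH6 (chr20:42271054-42415421) and CDH17 (chr14:72437129-72525873) lie on 3 others.

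Comparing OF with YF addressed the effect of ageing on the endometrium. In OF, CDH11 was about 2-fold lower than in YF, CDH13 about 2-fold higher and CDH17 lower with a wide spread, and for CDH17 and the other 6 genes the 95% interval of the difference held 0. None of the 9 passed an adjusted p of 0.05 in limma fitted over 19755 transcripts, where 0 transcripts (0%) were called and the smallest adjusted p was 0.667. At an unadjusted p under 0.05 limma gave 478 transcripts (2.42%), among them CDH11 and CDH13. With slide as a block CDH13 no longer passed this unadjusted threshold, and its limma interval ran from -0.0967 to 2.14, while CDH11 passed it with an interval from -1.92 to -0.164. CDH13 also lost it without YF 1070, YF 1127, OF 0234 or OF 2258. CDH11 passed it without any 1 animal, but not on slide 2 alone or without both OF 0234 and OF 2258. FCROS, the rank method of the study, was coded anew here, with an f-value in the outer 0.025 at either end and a fold of at least 1.5. The study reported fewer calls from it, with more lower than higher in OF. Here 1300 of 26323 transcripts (4.94%) were called, 757 higher (2.88%) and 543 lower (2.06%) in OF. This split turned when some YF were left out, to 735 higher and 820 lower without YF 1072, 652 and 755 without YF 1069, and 693 and 745 without YF 1127. CDH13 was among the higher ones, and CDH11 and CDH17 were among the lower ones. With OF 0234 and OF 2258 left out, a choice made after seeing the data, FCROS called CDH11 and not the other 8. In limma's values 4 of the 9 were above 0 and 5 below, with a median of -0.16 against 0.01 over all transcripts tested. CDH6, among those above 0, entered the test only through the OF arrays. In none of the 9 did the OF and YF values fail to overlap, against 1.53% of transcripts (0.931% with every OF above and 0.597% with every OF below).

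**Figure D1:**
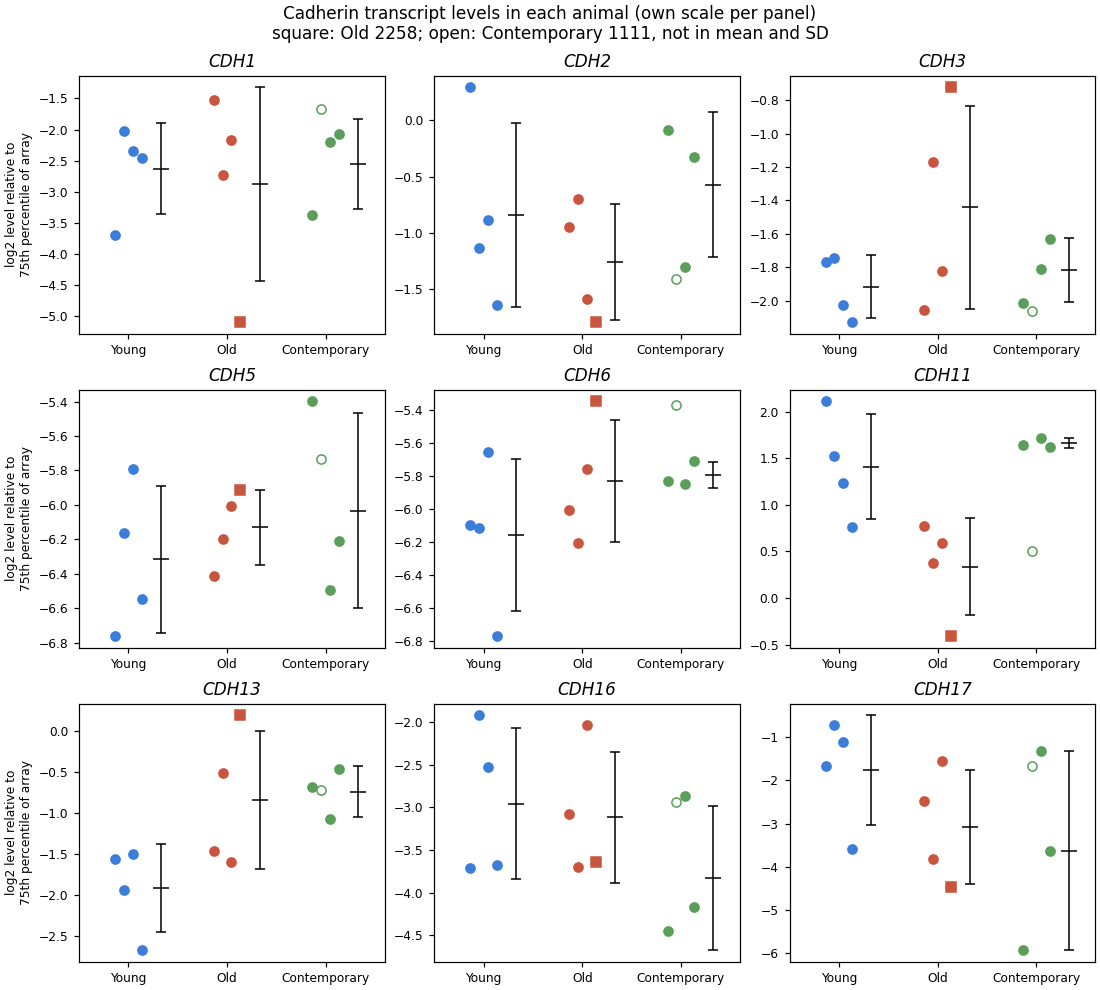
Log2 level of each of the 9 cadherins relative to the 75th percentile of the array (vertical axis, its own range in every panel) in Young, Old and Contemporary cows, 1 point per animal, with the group mean and SD as a bar beside the points. CDH11 lies between 0.76 and 2.11 in YF and between -0.41 and 0.78 in OF, and Contemporary 1111 (open circle) lies at 0.50, below the other 3 Contemporary cows.

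CDH11 (OB-cadherin), a type II member known from stromal cells, was at log2 levels of 2.11, 1.52, 1.23 and 0.76 in YF 1069, 1070, 1072 and 1127. In OF 0233, 0234, 0245 and 2258 it was at 0.78, 0.38, 0.59 and -0.41. The groups overlapped narrowly, with the highest OF at 0.777 and the lowest YF at 0.764, and 3 of 4 OF were below every YF. The YF mean was 1.41 ± 0.56 (SD, n = 4) and the OF mean 0.34 ± 0.52 (SD, n = 4), a log2 difference of -1.07 ± 0.34 (SE, 95% interval -1.85 to -0.29, limma, adjusted p = 0.999). The exact permutation test (two-sided) gave p = 0.0571, where 0.0286 is the smallest that 4 against 4 animals can give. In FCROS its f-value was 0.00527 and its ratio of OF to YF 0.470. All 4 probes gave nearly the same difference, from -1.06 to -1.09, which is no independent check since they overlap. Leaving out 1 animal at a time kept the difference between -1.29 and -0.82. It was -0.72 without OF 0234 and OF 2258, where FCROS gave a ratio of 0.573, and the part of smooth muscle in these biopsies in the difference was not tested. Within slide 1 (1 OF, 2 YF) it was -0.79 and within slide 2 (3 OF, 2 YF) -1.19.

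CDH13 (T-cadherin), known from vascular smooth muscle and endothelium, went the other way. Levels in YF 1069, 1070, 1072 and 1127 were -1.56, -1.94, -1.50 and -2.67. In OF 0233 and 0245 they were -1.46 and -1.60, close to YF, and in OF 0234 and 2258 they were -0.52 and 0.19. The 3 OF that exceeded every YF thus included the 2 arrays with high smooth muscle markers. The log2 difference was 1.07 ± 0.44 (SE, 95% interval 0.08 to 2.07, limma, adjusted p = 0.999), and the exact permutation p was 0.0857. Its probes, which share no more than 5 bases in a row, gave 1.09 and 1.05. FCROS gave an f-value of 0.994 and a ratio of 2.28. Without OF 0234 and OF 2258 the difference was 0.39 and the FCROS ratio 1.25, no longer called. The OF arrays with high CDH13 were both on slide 2, as was YF 1127 with the lowest level, and the difference was 1.52 there and 0.13 on slide 1.

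CDH17 (LI-cadherin), an epithelial 7D cadherin best known from intestine, had the largest mean difference of the 9. It was at -1.67, -0.72, -1.13 and -3.59 in YF 1069, 1070, 1072 and 1127 and at -2.49, -3.83, -1.55 and -4.48 in OF 0233, 0234, 0245 and 2258. The groups overlapped, with 2 of 4 OF below every YF. The log2 difference was -1.31 ± 0.78 (SE, 95% interval -3.10 to 0.48, limma, adjusted p = 0.999, exact permutation p = 0.20). FCROS called it with a ratio of 0.434, and without OF 0234 and OF 2258 the ratio was 0.710 and the call was lost. Without YF 1127 alone the difference was -1.92, and without OF 2258 alone -0.85.

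CDH16 (Ksp-cadherin), the kidney 7D cadherin, was at -3.71, -1.92, -2.52 and -3.68 in YF 1069, 1070, 1072 and 1127 and at -3.08, -3.70, -2.04 and -3.64 in OF 0233, 0234, 0245 and 2258, with groups that overlapped fully. The log2 difference was -0.16 ± 0.51 (SE, limma, adjusted p = 0.999, exact permutation p = 0.80). The levels split by slide instead. YF 1070, YF 1072 and OF 0245, on slide 1, lay at -1.92, -2.52 and -2.04, above every slide 2 animal of their own group, and Contemporary 1111, also on slide 1, lay at -2.93. Averaged within the 3 groups, slide 1 exceeded slide 2 by 1.27 for CDH16 and by 1.91 for CDH17 on the log2 scale (exact permutation of the slides within groups, 96 arrangements, two-sided p = 0.0417 for each, unadjusted over the 9 genes). For CDH1, CDH2, CDH3, CDH5, CDH6, CDH11 and CDH13 this test gave p from 0.146 to 0.688. With slide as a block the OF minus YF difference of CDH16 turned from -0.16 to 0.21 and that of CDH17 shrank from -1.31 to -0.85.

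The 4 oligos of CDH16 did not behave alike. The 3 overlapping ones ranged over the 12 arrays from -5.90 to -1.70, from -7.40 to -1.91 and from -5.70 to -1.27, whereas the one that lies elsewhere stayed between -3.37 and -2.15. At that oligo the OF did not split by slide, with OF 2258 of slide 2 at -2.23 above OF 0245 of slide 1 at -2.36. The YF did, with YF 1070 and YF 1072 at -2.15 and -2.41 above YF 1069 and YF 1127 at -2.87 and -2.95. The second transcript, read only by overlapping oligos, went from -6.55 in OF 2258 to -1.59 in YF 1070, and its probe 1 was not well above background in OF 2258.

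**Figure D2:**
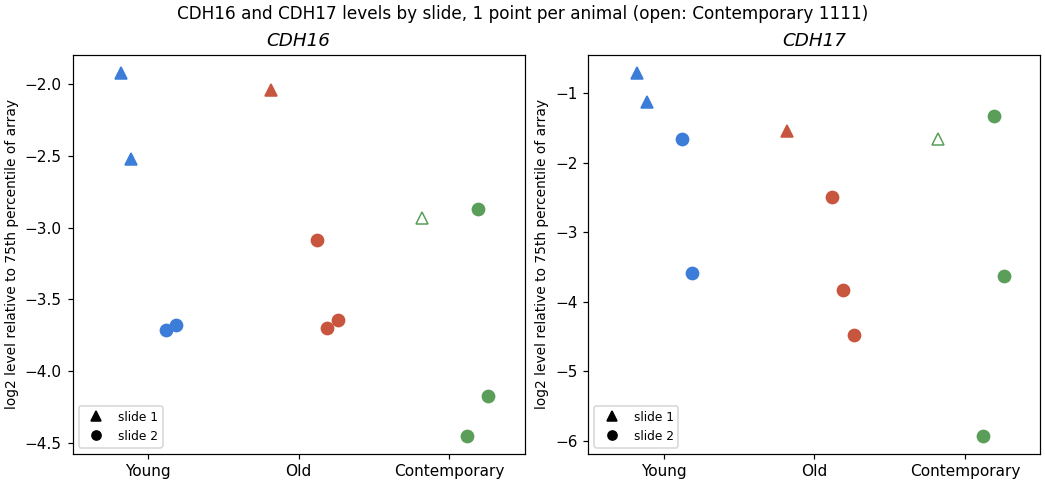
Log2 levels of CDH16 and CDH17 relative to the 75th percentile of the array, with 1 point per animal, triangles for slide 1 and circles for slide 2, in Young, Old and Contemporary cows. In Young and Old cows every slide 1 animal lies above every slide 2 animal of its group, and Contemporary 1111 (open triangle) lies at -2.93 for CDH16 and -1.66 for CDH17, just below Contemporary 1128.

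CDH1, the main cadherin of uterine epithelium, was at -3.70, -2.02, -2.34 and -2.45 in YF 1069, 1070, 1072 and 1127 and at -1.52, -2.74, -2.17 and -5.09 in OF 0233, 0234, 0245 and 2258. The highest and the lowest of these 8 animals were both OF. The log2 difference of -0.25 ± 0.74 (SE, 95% interval -1.94 to 1.43, limma, adjusted p = 0.999, exact permutation p = 0.80) turned to 0.48 without OF 2258 and to 0.78 without OF 0234 and OF 2258. CDH3 (P-cadherin), of basal and placental epithelia, was at -1.77, -1.74, -2.03 and -2.13 in YF 1069, 1070, 1072 and 1127 and at -2.05, -1.17, -1.82 and -0.72 in OF 0233, 0234, 0245 and 2258. Only OF 0234 and OF 2258 were above the YF range. Its log2 difference was 0.48 ± 0.29 (SE, 95% interval -0.19 to 1.14, limma, adjusted p = 0.999, exact permutation p = 0.286), and -0.02 without these 2 animals.

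Within CDH3 the 2 probes parted. Probe 1 lay within -1.84 to -1.11 on all 12 arrays, and probe 2 ranged from -2.79 to -0.17, with its highest values, -0.17 and -0.92, in OF 2258 and OF 0234. Over the 11 arrays without Contemporary 1111, after subtracting group means, probe 2 followed the smooth muscle markers with r = 0.84 (rho = 0.72, exact permutation p = 0.0949, r = 0.64 without the 2 arrays farthest out on the markers) and probe 1 with r = 0.29 (rho = 0.15, exact permutation p = 0.632, r = -0.34 without those 2 arrays). With the epithelial markers, probe 2 had r = -0.78 (rho = -0.75, exact permutation p = 0.0220, r = -0.57 without the 2 farthest arrays) and probe 1 r = -0.03 (rho = 0.02, exact permutation p = 0.938). These probe relations were examined after the values had been seen and are not adjusted for their number.

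**Figure D3:**
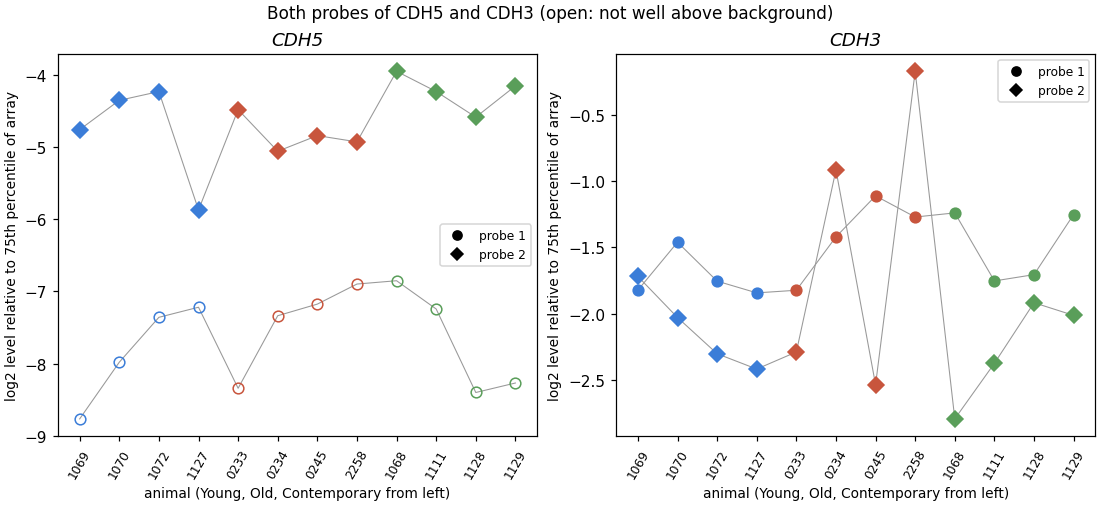
Log2 level of each probe of CDH5 (left) and CDH3 (right) relative to the 75th percentile of the array, in every animal along the horizontal axis, coloured by group. Probe 1 of CDH5 was not well above background on any array (open symbols), and probe 2 of CDH3 peaks at -0.17 in OF 2258 and -0.92 in OF 0234, where probe 1 does not.

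Among the mesenchymal members, CDH2 (N-cadherin) was at 0.29, -1.13, -0.88 and -1.64 in YF 1069, 1070, 1072 and 1127 and at -0.95, -0.70, -1.59 and -1.80 in OF 0233, 0234, 0245 and 2258. The OF lay inside the lower part of the YF range apart from OF 2258. The log2 difference was -0.42 ± 0.42 (SE, 95% interval -1.39 to 0.55, limma, adjusted p = 0.999, exact permutation p = 0.514), between -0.68 and -0.04 when 1 animal at a time was left out. CDH6 (K-cadherin), a type II member of kidney and developing tissues, was dim. Its 2 probes, which overlap by 39 bases, were well above background on 9 and 10 of 12 arrays, and it entered the test only because probe 2 was above background on all 4 OF arrays against 2 of 4 YF arrays, so its direction is given as a value only. Its averaged level ranged from -6.77 to -5.65 in YF and from -6.21 to -5.35 in OF, and the log2 difference was 0.33 ± 0.27 (SE).

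CDH5, the endothelial member, was read by 1 working probe. Probe 1 was not well above background on any of the 12 arrays. Probe 2 was at -4.76, -4.35, -4.23 and -5.87 in YF 1069, 1070, 1072 and 1127 and at -4.48, -5.06, -4.84 and -4.93 in OF 0233, 0234, 0245 and 2258, so that OF lay within the YF range. The averaged transcript differed by 0.18 ± 0.23 (SE, limma, adjusted p = 0.999, exact permutation p = 0.486) between OF and YF on the log2 scale, and probe 2 alone by -0.02 ± 0.35 (SE).

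Differences between 2 cadherins on the same array do not depend on its scaling, and only their change from group to group can be read. On the log2 scale CDH1 minus CDH11 was on average -4.03 in 4 YF (SD 1.19), -3.22 in 4 OF (SD 1.04) and -4.21 in 3 Contemporary cows (SD 0.715). It was 0.82 higher in OF than in YF, with overlapping groups (exact permutation p = 0.371). CDH1 minus CDH2 differed by 0.17 (exact permutation p = 0.857). CDH13 minus CDH5 differed by 0.89 (exact permutation p = 0.143) with the level of CDH5 that averages in the probe at background, and by 1.10 (exact permutation p = 0.114) with its working probe alone, a reading added after seeing the data. In all 3 the groups overlapped, and 0.0286 is the smallest p the design allows.

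Comparing the Contemporary cows with OF and with YF shows where a set of other cows falls, and both comparisons share groups with the one above, so their values stand side by side without being counted as independent. CDH11 was at 1.65, 1.72 and 1.62 in Contemporary 1068, 1128 and 1129. These 3 lay above all 4 OF and inside the YF range. The log2 difference was 1.33 ± 0.29 (SE, 95% interval from 0.655 to 1.998, limma, adjusted p = 0.677) from OF and 0.26 ± 0.30 (SE, 95% interval -0.44 to 0.95, limma, adjusted p = 0.9999) from YF. The exact permutation p was 0.0571 from OF and 0.457 from YF, and 3 against 4 animals cannot go below 0.0571. Contemporary 1111 was at 0.50, inside the OF range. With this animal added, the difference from OF was 1.04 and the groups overlapped, and the difference from YF turned to -0.03. Without this animal, all 11 stromal fibroblast markers were above 0 in Contemporary minus OF (median 0.53). All 9 tested smooth muscle markers were below 0 in that comparison (median -1.99). The part of stroma and smooth muscle in the difference of CDH11 from OF was not tested.

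CDH13 was at -0.68, -1.08 and -0.46 in Contemporary 1068, 1128 and 1129 and at -0.72 in Contemporary 1111, all 4 above every YF. The log2 difference from YF was 1.18 ± 0.31 (SE, 95% interval 0.45 to 1.90, limma, adjusted p = 0.9999, exact permutation p = 0.0571, the smallest possible), and 1.18 again with Contemporary 1111 added. From OF it was 0.10 ± 0.45 (SE, limma, adjusted p = 0.988), with the 3 cows lying between the lower and the upper OF values. The smooth muscle markers of these cows, at -0.72 to -0.31, were inside the YF range of -1.40 to 0.16. All 10 tested endothelial markers were above 0 in Contemporary minus YF (median 0.45), as were 8 of 11 stromal fibroblast markers (median 0.19). The mean endothelial level ran from -0.60 to 0.27 in these cows and from -1.20 to -0.26 in YF. The part of these cell types in the difference of CDH13 from YF was not tested. Within slide 2, which holds all 3, the difference from YF was 1.37.

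Among the 9 genes, CDH13 was the one whose Contemporary and YF values did not overlap, against 765 of 19993 transcripts (3.83%, with 1.51% above and 2.32% below YF), and CDH11 the one whose Contemporary and OF values did not, against 1153 of 19914 (5.79%, with 2.86% above and 2.93% below OF). No transcript (0%) passed an adjusted p of 0.05 in limma in either comparison. At an unadjusted p under 0.05 limma gave 606 transcripts (3.03%) against YF and 911 (4.57%) against OF, each with 1 of the 9 cadherins. CDH17 showed the widest Contemporary spread, at -5.92, -1.33 and -3.63 in Contemporary 1068, 1128 and 1129, a log2 difference of -1.85 ± 1.08 (SE, limma, adjusted p = 0.9999) from YF. It was -0.70 without Contemporary 1068 and -3.00 without Contemporary 1128, and in Contemporary 1068 probe 2 of CDH17 was not well above background, so that its level there is uncertain. For CDH16 the levels were -4.45, -2.87 and -4.17 in the same order, a log2 difference of -0.87 ± 0.55 (SE, limma, adjusted p = 0.9999) from YF, with all 3 on slide 2.

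Of the remaining members, CDH1 was at -3.38, -2.19 and -2.07 in Contemporary 1068, 1128 and 1129 and at -1.68 in Contemporary 1111, and the 95% interval of its difference from YF ran from -1.003 to 1.163. CDH3 was at -2.02, -1.81 and -1.63, and at -2.06 in Contemporary 1111, with an interval from -0.31 to 0.51. CDH3 is known from epithelia, but in these animals its r with the epithelial markers was below 0. CDH2 was at -0.09, -1.30 and -0.32, and at -1.41 in Contemporary 1111, with 2 of the 3 above every OF and a log2 difference from OF of 0.69 ± 0.38 (SE, limma, adjusted p = 0.912, exact permutation p = 0.171). CDH6 was at -5.83, -5.85 and -5.71, and at -5.37 in Contemporary 1111. In Contemporary minus YF it entered the test only through the Contemporary arrays, so its direction there is a value only. Probe 2 of CDH5, the working endothelial probe, was at -3.95, -4.58 and -4.15, and at -4.23 in Contemporary 1111, a log2 difference from OF of 0.60 ± 0.22 (SE, limma over probes, adjusted p = 0.960). Over all 9 genes 7 lay above 0, CDH6 among them, and 2 below 0 against YF (median 0.26, with -0.02 over all transcripts tested). Against OF 6 lay above and 3 below 0 (median 0.10, with -0.04 over all transcripts tested).

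**Figure D4:**
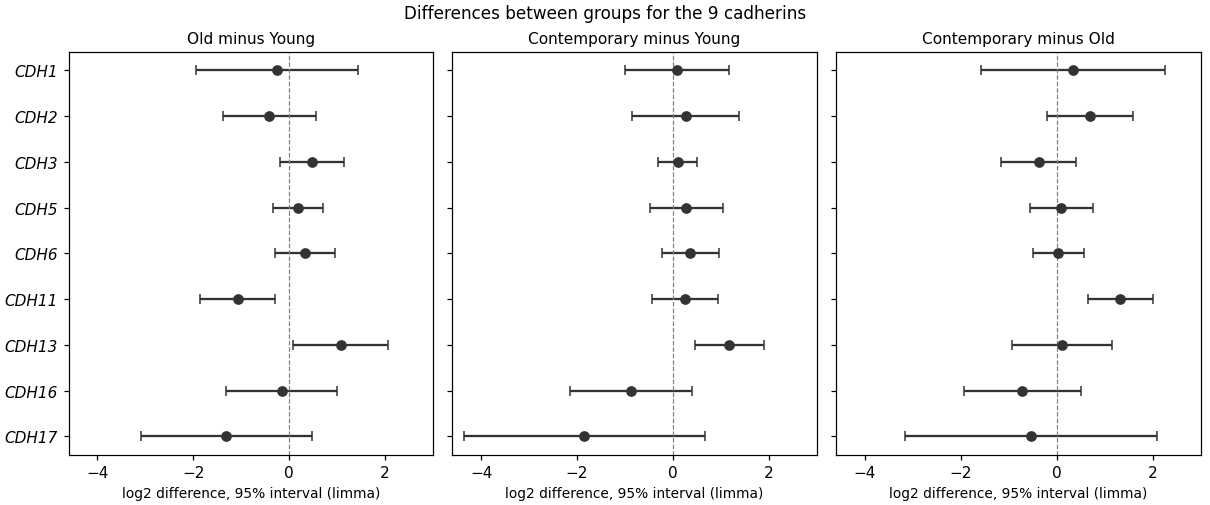
Log2 difference (horizontal axis) of each cadherin with its 95% interval from limma, for Old minus Young, Contemporary minus Young and Contemporary minus Old cows. CDH11 is below 0 in Old minus Young (-1.07) and above 0 in Contemporary minus Old (1.33), CDH13 is above 0 in both comparisons with Young cows (1.07 and 1.18), and no difference passed an adjusted p of 0.05.

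Catenins bind the cytoplasmic tail of classical cadherins. Of 10 catenins on the array 7 were well above background on every array and tested, 5 of them above and 2 below 0 in OF minus YF, with a median of 0.04 against 0.01 over all transcripts tested, and none passed an adjusted p of 0.05 in limma. CTNNB1 (β-catenin), which also carries Wnt signals, differed by 0.04 ± 0.25 (SE). CTNNA1 (α-catenin), the link to actin, differed by -0.04 ± 0.18 (SE). CTNND1 (p120), which holds cadherins at the membrane, differed by 0.02 ± 0.25 (SE). JUP (plakoglobin), shared with desmosomes, differed by 0.19 ± 0.27 (SE), PKP4 by 0.11 ± 0.29 and CTNNAL1 by -0.06 ± 0.27.

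ARVCF, of the p120 family, averaged -1.98 in 4 YF (SD 0.285), -1.31 in 4 OF (SD 0.569) and -1.70 in 3 Contemporary cows (SD 0.265). The log2 difference of 0.67 ± 0.29 (SE, limma, adjusted p = 0.999, exact permutation p = 0.0857) was called higher by FCROS. CTNND2 was called higher as well, but it was well above background on 1 of 12 arrays only. Without OF 0234 and OF 2258 the difference of ARVCF was 0.26 ± 0.24 (SE, limma, adjusted p = 0.993), and FCROS called no catenin. CTNNA2 was above background on 1 array and CTNNA3 on none.

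Of 14 other cadherins on the array 6 were tested in OF minus YF, 3 on each side of 0, and none passed an adjusted p of 0.05 in limma. The extremes were CDH23, a cadherin of hair-cell tip links, at 1.07 ± 0.77 (SE), CDH7 at 0.67 ± 0.78, CDH12 at -0.83 ± 0.40 and CDH19 at -0.13 ± 0.43. CDH12 was the one of the 14 that FCROS called, as lower in OF, a call lost without OF 0234 and OF 2258 (ratio 0.578). Its YF mean was -5.89 ± 0.84 (SD, n = 4) and its OF mean -6.73 ± 0.34 (SD, n = 4). With OF 0234 and OF 2258 left out FCROS called CDH15 as lower in OF instead (ratio 0.415). The log2 difference of CDH15 was then -1.08 ± 0.50 (SE, limma, adjusted p = 0.993), against -0.13 ± 0.60 over all animals. Of 7 desmosomal cadherins 3 were tested, DSC1 at 0.22 ± 0.62, DSG2 at -0.15 ± 0.77 and DSC2 at -0.22 ± 0.53 (log2 difference ± SE). Without OF 0234 and OF 2258 all 3 were above 0, at 1.39 ± 0.27, 0.83 ± 0.68 and 0.55 ± 0.32 in the same order. None of them then passed an adjusted p of 0.05 in limma. FCROS then called DSC1 higher (ratio 2.56), a dim gene well above background on 11 of 12 arrays.

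Among 11 tested junction partners the median difference of OF minus YF was 0.06. The cytoskeletal linkers ACTN1 (α-actinin) and VCL (vinculin), which smooth muscle also expresses, were highest at 0.94 ± 0.44 and 0.84 ± 0.60 (log2 difference ± SE), and the receptor phosphatases PTPRK and PTPRM were lowest at -0.41 ± 0.29 and -0.26 ± 0.40. FCROS called ACTN1 higher, and not without OF 0234 and OF 2258, where the differences of ACTN1 and VCL were 0.23 ± 0.22 and -0.21 ± 0.27. Of 13 tested regulators of cadherin transcription and shedding, 5 were above and 8 below 0, with ZEB1 and KLF4 highest at 0.77 ± 0.63 and 0.75 ± 0.89 and SNAI2 among the lowest at -0.38 ± 0.43. Without OF 0234 and OF 2258 ZEB1 turned to -0.21 ± 0.46, KLF4 was at 0.24 ± 0.66 and SNAI2 at -0.60 ± 0.55. None of these passed an adjusted p of 0.05 in limma.

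Marker lists that hold no cadherin give the tissue beside which the members moved. In OF minus YF all 9 tested smooth muscle markers were above 0 (median 2.08), and FCROS called 9 of the 10 on the array higher. All 11 stromal fibroblast markers were below 0 (median -0.27), 9 of 12 epithelial markers were below 0 (median -0.28) and 8 of 10 endothelial markers were above 0 (median 0.14), and no marker passed an adjusted p of 0.05 in limma. Without OF 0234 and OF 2258 the smooth muscle median was 0.13, with 7 of 9 markers above 0 and none called by FCROS, the epithelial median was 0.66 with all 12 above 0, and the stromal median was -0.50 with all 11 below 0, again with no adjusted p under 0.05 in limma. By log2 difference of OF minus YF over all animals, the extremes (± SE) were KCNMB1 at 2.89 ± 1.49 and MYH11 at 2.80 ± 1.37 above LMOD1 at 1.61 ± 0.85 and CALD1 at 0.77 ± 0.63 among smooth muscle genes. Among stromal genes PDGFRB and VIM were highest at -0.09 ± 0.31 and -0.10 ± 0.23, and FBLN1 and COL1A2 lowest at -0.37 ± 0.22 and -0.46 ± 0.29. Among epithelial genes ELF3 and KRT19 were highest at 0.19 ± 0.56 and 0.04 ± 0.38, and EPCAM and MUC1 lowest at -0.50 ± 0.77 and -0.80 ± 0.75. Among endothelial genes CLDN5 and KDR were highest at 0.54 ± 0.23 and 0.53 ± 0.47, and EMCN and TEK lowest at -0.24 ± 0.22 and -0.42 ± 0.21. Of 8 leukocyte markers 4 lay on each side of 0, from AIF1 at -0.29 ± 0.20 and CD14 at -0.18 ± 0.17 to CD79A at 0.23 ± 0.23 and CD3E at 0.25 ± 0.42. All 5 ciliated cell markers were below 0, from RSPH1 at -1.48 ± 1.39 and DNAH5 at -1.09 ± 1.09 to TPPP3 at -0.46 ± 0.52 and FOXJ1 at -0.24 ± 0.62. Of 4 glia markers 2 lay on each side of 0, among them SOX10 at 0.35 ± 0.17 and S100B at -0.02 ± 0.45. The mean log2 level of the smooth muscle list ran from -1.40 to 0.16 in YF and from -0.94 to 4.06 in OF. The stromal list ran from 2.38 to 3.53 in YF and from 2.29 to 2.98 in OF, the endothelial list from -1.20 to -0.26 in YF and from -0.59 to -0.30 in OF, and the epithelial list from 0.60 to 2.47 in YF and from -0.20 to 2.63 in OF.

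Each member was set against the mean level of 5 marker lists over 11 animals, after subtracting group means, 45 relations in all, none of which passed 0.05 after Benjamini-Hochberg adjustment. CDH1 followed the epithelial markers with r = 0.93 (rho = 0.90, exact permutation within groups, p = 0.00463, adjusted 0.111), and r was 0.75 without the 2 animals farthest out on the markers. CDH1 also had r = 0.71 with the leukocyte markers (rho = 0.77, exact permutation p = 0.0237, r = 0.67 without the 2 farthest animals). It had r = -0.80 with the smooth muscle markers (rho = -0.80, exact permutation p = 0.0223, r = -0.37 without the 2 farthest animals). With the stromal fibroblast markers its r was -0.68 (rho = -0.66, exact permutation p = 0.0266, r = -0.24 without the 2 farthest animals). Each of these p-values was 0.195 after adjustment. CDH13 followed the smooth muscle markers with r = 0.90 (rho = 0.89, exact permutation p = 0.00492, adjusted 0.111), and r was 0.85 without the 2 farthest animals. CDH13 also had r = 0.77 with the stromal fibroblast markers (rho = 0.81, exact permutation p = 0.0347, adjusted 0.195, r = 0.80 without the 2 farthest animals) and r = -0.79 with the epithelial markers (rho = -0.75, exact permutation p = 0.0344, adjusted 0.195). Its r with the endothelial markers was 0.29 (rho = 0.16, exact permutation p = 0.313).

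CDH3, listed as epithelial, had r = -0.74 with the epithelial markers (rho = -0.68, exact permutation p = 0.0619), 0.88 with the smooth muscle markers (rho = 0.74, exact permutation p = 0.0544) and 0.68 with the stromal fibroblast markers (rho = 0.78, exact permutation p = 0.0145, adjusted 0.195). For CDH11, r with the epithelial markers was 0.26 (rho = 0.33, exact permutation p = 0.525), and r with the stromal fibroblast markers was 0.24 (rho = -0.03, exact permutation p = 0.596, 0.30 without the 2 farthest animals), and with the endothelial markers 0.55 (rho = 0.48, exact permutation p = 0.0671). With the smooth muscle markers CDH11 had r = -0.53 (rho = -0.51, exact permutation p = 0.173, r = 0.03 without the 2 farthest animals). CDH5 had r = 0.48 (rho = 0.41, exact permutation p = 0.303) with the endothelial markers when both probes were averaged. Its working probe alone had r = 0.80 (rho = 0.66, exact permutation p = 0.0318, examined after the values had been seen), which fell to 0.40 without the 2 farthest animals and so rests on them. CDH16 and CDH17 had r = 0.63 and 0.47 with the epithelial markers (rho = 0.66 and 0.56, exact permutation p = 0.0564 and 0.102). With the leukocyte markers they had r = 0.599 and 0.596 (rho = 0.691 and 0.5, exact permutation p = 0.08999 and 0.0859). For CDH16 r was thus higher with the epithelial markers and rho with the leukocyte markers, and for CDH17 the reverse held.

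**Figure D5:**
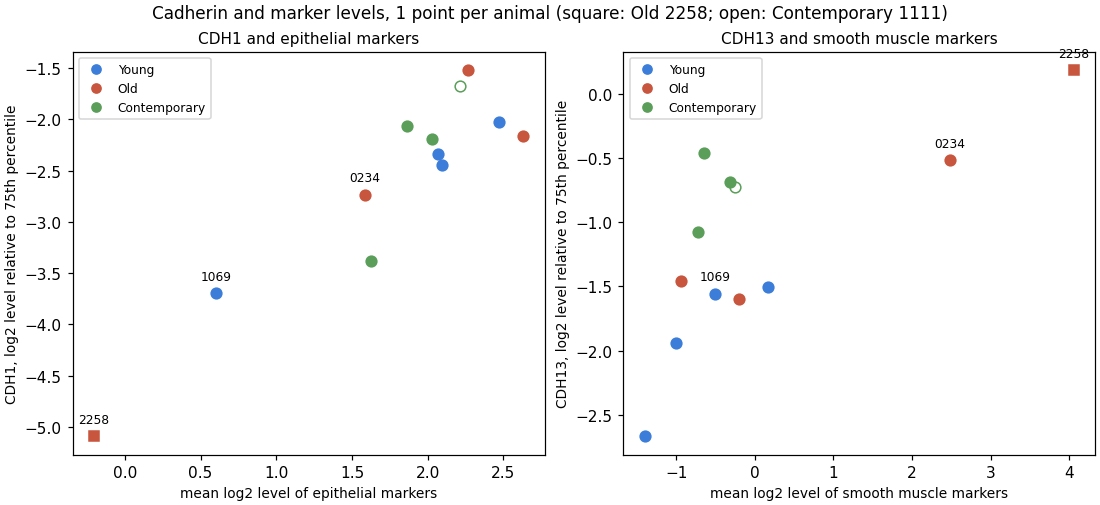
Log2 level of CDH1 against the mean log2 level of the epithelial markers (left) and of CDH13 against that of the smooth muscle markers (right), 1 point per animal, coloured by group. OF 2258 (square) has the lowest CDH1 (-5.09) with the lowest epithelial level (-0.20), and the highest CDH13 (0.19) with the highest smooth muscle level (4.06), while the Contemporary cows have CDH13 above YF at like smooth muscle levels.

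Between the 9 members themselves 36 pairs were compared in the same way. CDH16 and CDH17, the 7D cadherins, had the highest correlation of the 36, with r = 0.85 (rho = 0.82, exact permutation p = 0.00231, adjusted 0.0833, 0.84 without the 2 animals farthest out on CDH16), and both moved with the slide as given above. CDH3 and CDH13 followed with r = 0.84 (rho = 0.72, exact permutation p = 0.0249, adjusted 0.422). CDH1 and CDH13 were opposed with r = -0.72 (rho = -0.64, exact permutation p = 0.0538), which was -0.40 without the 2 farthest animals. CDH11 and CDH2 had r = 0.67 (rho = 0.46, exact permutation p = 0.0570), which was 0.32 without the 2 farthest. No pair passed 0.05 after adjustment.

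As a description of likeness, the genes closest to 4 of the members over the same 11 animals were taken from 19755 tested transcripts, with no test because they were picked as the highest. Closest to CDH1 were LPAR3, MYG1, TNK1 and PLEKHA1, with r from 0.983 to 0.988. LPAR3 is a receptor for lysophosphatidic acid. Closest to CDH13 were ZFP42, NOD2, FHOD1, CDKN2C and RBPMS2, with r from 0.950 to 0.983. FHOD1, a formin, and RBPMS2, an RNA-binding protein, are known from smooth muscle. Closest to CDH11 were AGPAT1, ANKRD2, MFSD2A, CCL25 and ZNF385C, with r from 0.931 to 0.960, none of them a stromal matrix gene of the marker list. Closest to CDH5 were PREB, INPP5J, ZNF74, BORCS8 and C1orf68, with r from 0.911 to 0.937, for a level that averages the working probe with the one at background.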

How the data were processed

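Cows were grouped by their titles (4 Old, 4 Young and 4 Contemporary, with 1 Contemporary cow set aside as the label does). The authors extracted Cy3 intensity from scanned 1-colour arrays with Agilent Feature Extraction 10.7.3.1, and the deposited files hold spots that were not normalized between arrays. Here 1319 control spots and 66 probes flagged as outliers on at least 1 array were left out, log2 processed intensity was centred on the 75th percentile of each array and the remaining 61333 probes were averaged per transcript (26323). Symbols came from RefSeq accessions (12774 transcripts) or the array's gene name (9398). Transcripts were tested if some probe of theirs stood well above background on all arrays of either group, with limma 3.58.1 in R 4.3.3 (Benjamini-Hochberg), single values with exact permutation tests over animals (two-sided), and all transcripts with FCROS, which averages the ranks of the 16 OF to YF ratios after trimming 0.25 at each end. Intervals are at 95%. The tests were checked on simulated data. Every member, every catenin, the 2 highest and 2 lowest genes of each other list and the 5 nearest genes of 4 members were named, apart from a few that are not reported here. A gene with several transcripts was read at the one with the highest mean. The members and lists were chosen with earlier results of these data known. Alternatives were other scalings, background correction, filters, probe summaries, slide as a block, array weights and leaving out animals, and slide 1 alone, slide as a block with Contemporary 1111, CDH5 at its bright probe and OF 0234 and OF 2258 left out together were chosen after seeing the data. The small number of arrays limits the precision.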

Additional observations from a re-analysis of the deposited data

Results flagged for a closer look

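Of 39 groups of 4 animals examined for 1 far-lying value, over the members and the 3 within-array differences, 2 held one, and chance flags about 1 group in 20. CDH11 in Contemporary 1111 was at 0.50 on the log2 scale, far below the other 3 Contemporary cows at 1.62 to 1.72, a gap of 0.917 of the group's whole range. CDH1 minus CDH11 in YF 1069 was at -5.81, while the other 3 YF lay between -3.57 and -3.21, a gap of 0.863 of the range. This animal had both the lowest CDH1 and the highest CDH11 of the YF.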

How the results depend on the processing

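No paired analysis was possible because the groups share no replicate numbers, each cow having an identity number of its own. Of 537 alternative values of single-gene differences 489 kept their direction, 46 reversed and 2 were counted as changed without reversing. No member passed the adjusted test in the main fit of any comparison, so that test does not set these reversals apart. OF minus YF of CDH11, CDH13 and CDH17 and Contemporary minus OF of CDH11 reversed under none. With array weights, which give each array its own precision, OF minus YF was 0.12 for CDH2, -0.0448 for CDH5 and -0.0947 for CDH6, Contemporary minus YF was -0.16 for CDH5, and Contemporary minus OF was -0.0909 for CDH2, -0.12 for CDH5, -0.21 for CDH13, 0.14 for CDH16 and 1.15 for CDH17. In OF minus YF the weight of OF 0234 was 6.91, against 0.36 to 0.74 for the other OF. In Contemporary minus OF it was 4.72, against 0.35 to 0.81. The weighted OF level therefore rests mostly on this cow, whose smooth muscle markers were high. With the brightest probe of each transcript, OF minus YF was -0.0238 for CDH5 and 0.0702 for CDH16, and Contemporary minus OF was 0.00749 for CDH3 and -0.12 for CDH6. With probe 2 of CDH3 alone, Contemporary minus YF was -0.12. With normexp background correction Contemporary minus OF was -0.0242 for CDH5 and -0.15 for CDH6. With slide as a block OF minus YF of CDH16 was 0.21, and on slide 2 alone it was 0.22, where Contemporary minus OF of CDH13 was -0.15. Without OF 0234 and OF 2258, left out after seeing the data, OF minus YF was 0.78 for CDH1, -0.0213 for CDH3 and 0.40 for CDH16, and FCROS called 1 member in place of 3. With Contemporary 1111, Contemporary minus YF of CDH11 was -0.0348, and with slide as a block as well, added after seeing the data, it was -0.17, and -0.0771 for CDH2. Leaving out 1 animal at a time, OF minus YF ran from -0.70 to 0.48 for CDH1 and from -0.51 to 0.19 for CDH16, and CDH1 minus CDH2 from -0.57 to 0.72. Contemporary minus YF then ran from -0.28 to 0.50 for CDH1 and from -0.0348 to 0.51 for CDH5, and Contemporary minus OF from -0.41 to 0.78 for CDH1, -0.15 to 0.45 for CDH13, -1.69 to 0.61 for CDH17, -0.22 to 0.33 for CDH5 and -0.0905 to 0.20 for CDH6. Counts of transcripts past an adjusted p of 0.05 in limma stayed at 0 in OF minus YF. In Contemporary minus YF they were 1 with quantile normalization, 2 with all 3 groups in 1 fit, 1 with array weights, 4 with Contemporary 1111, 3 with that cow and slide as a block, and 0 to 1 without 1 animal. In Contemporary minus OF they were 26 with array weights, where OF 0234 weighs most, 2 with Contemporary 1111 and 0 to 1 without 1 animal. FCROS with a fold of 2 called 565 transcripts. The causes were not tested. CDH5 probe 1 and, on some arrays, CDH6 and probes of CDH16 and CDH17 lay too near background to be read.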
